A study of Mus musculus with 6 samples.

Results

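Transcripts for iron handling and for the metal-binding metallothioneins were examined as a set of 10 genes, Tfrc, Fth1, Ftl1, Ncoa4, Trf, Aco1, Ireb2, Heph, Mt1 and Mt2, taken by name from the 25805 genes listed for each library. All 10 were listed, and all 10 passed the filter on low values. The tissue was mouse kidney after ischaemia-reperfusion injury (IRI), in which the blood supply to the kidney is interrupted and then restored, and RNA was sequenced in bulk. There were 3 libraries labelled as Cxcr2 knockout with IRI and 3 labelled as wild type (WT) with IRI. All 6 libraries came from injured kidney, and uninjured tissue is not analysed here. The labels give no strain, age, sex, knockout allele or time after injury. They do not say that the libraries came from separate animals, so p-values measure the spread between these libraries, which may be technical. The study asked how CXCR2, a chemokine receptor found mainly on neutrophils, acts in acute kidney injury.

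Cells take up iron bound to the plasma protein transferrin (Trf) through the transferrin receptor (Tfrc), keep it in a shell of heavy and light ferritin subunits (Fth1, Ftl1), and free it again when the cargo receptor Ncoa4 carries ferritin to the lysosome. Iron regulatory proteins 1 and 2, made from Aco1 and Ireb2, bind hairpins called iron-responsive elements (IREs) when iron is scarce. Binding in the 5′ untranslated region blocks translation of ferritin, and binding in the 3′ untranslated region protects the transferrin receptor mRNA from decay. Ferritin control through its IRE therefore acts on translation and need not show in the amount of mRNA. Hephaestin (Heph) oxidises iron as it leaves the cell. Metallothioneins are small cysteine-rich proteins that bind zinc and copper, and their genes are induced by zinc, glucocorticoids and inflammation. Heavy-chain ferritin in the proximal tubule and haem oxygenase are known to limit injury in the mouse kidney.

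The hairpins are shown because they are the elements that the iron regulatory proteins bind. They were searched for in the untranslated regions of the GENCODE M21 transcripts (GRCm38) as a bulged C, 5 stem pairs and a 6-base loop. The loop was CAGTG followed by A, C or T. Such a match stood in 123 of 21901 coding genes (0.562%). Tfrc held 4 matches, Fth1 and Ftl1 held 1 each, and the other 7 genes held 0. The search also gave 0 matches for Slc11a2 and Epas1, mRNAs long known to carry an IRE. A count of 0 therefore does not show that a transcript lacks an IRE. Each line gives 30 bases, 5′ to 3′ on the strand of the gene, with the loop in capitals.
Tfrc 3′ UTR, chr16:32631219-32631248, plus strand: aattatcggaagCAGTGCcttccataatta
Tfrc 3′ UTR, chr16:32631598-32631627, plus strand: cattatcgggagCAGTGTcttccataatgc
Tfrc 3′ UTR, chr16:32631663-32631692, plus strand: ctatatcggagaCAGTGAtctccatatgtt
Tfrc 3′ UTR, chr16:32631710-32631739, plus strand: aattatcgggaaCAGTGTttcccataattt
Fth1 5′ UTR, chr19:9982732-9982761, plus strand: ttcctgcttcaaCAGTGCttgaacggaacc
Ftl1 5′ UTR, chr7:45459778-45459807, minus strand: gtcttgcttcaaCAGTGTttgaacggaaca

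The metallothionein genes are shown by the 250 bases before their RefSeq start (GRCm38.p6). They were chosen because Mt1 and Mt2 lie side by side on chromosome 8 and differed in the order of libraries by deposited value. The order for Mt2 is limited by its overlap with Gm45774 on the other strand and by 19 reads in WT library 1, as given below. Capitals mark the core of the metal response element, TGCACNC or TGCGCNC on either strand, the motif bound by the zinc-sensing factor Mtf1. The Mt1 window held 1 match and the Mt2 window held 3, of which 2 were on the strand of the gene and 1 on the other, with no overlap. The windows do not sit alike on the genes. The Mt1 window ends at 94179088, past the deposited Mt1 start of 94179082. The Mt2 window ends at 94172617, short of the deposited Mt2 start of 94172664. The counts cover these windows only and do not show which gene has more elements. Among 32851 windows of the same length, 21.4% held at least 1 match and 1.26% at least 3. A match is a description of letters and was not tested for binding. Of the 10 genes, 8 were in the table of these windows.
Mt1, chr8:94178839-94179088, plus strand: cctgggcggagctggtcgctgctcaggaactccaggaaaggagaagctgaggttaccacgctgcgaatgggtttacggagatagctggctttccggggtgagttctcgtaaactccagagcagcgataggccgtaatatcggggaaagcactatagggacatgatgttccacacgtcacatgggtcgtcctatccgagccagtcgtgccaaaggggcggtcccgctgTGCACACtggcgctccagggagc
Mt2, chr8:94172368-94172617, plus strand: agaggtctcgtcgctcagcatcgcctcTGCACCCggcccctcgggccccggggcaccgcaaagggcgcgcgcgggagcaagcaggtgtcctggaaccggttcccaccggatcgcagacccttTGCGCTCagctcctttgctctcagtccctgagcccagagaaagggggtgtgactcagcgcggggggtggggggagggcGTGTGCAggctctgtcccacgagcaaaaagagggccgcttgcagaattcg

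The values are normalized counts, that is reads per gene divided by 1 size factor per library. The libraries labelled knockout held 17372645, 17467391 and 17937195 reads on genes, and the WT libraries held 20356601, 17857684 and 15518083. Cxcr2 itself had normalized counts of 98.0, 36.8 and 56.6 in the libraries labelled knockout, against 15.9, 88.8 and 56.9 in the WT libraries. The groups overlapped, so the targeted transcript did not separate them, and the deleted stretch of the gene is not described in the labels. Labelled-knockout library 1 stood apart in transcripts of several cell types, tubule cells included. Its summed fat cell markers reached 40751, against 2214 and 344 in labelled-knockout libraries 2 and 3 and 929 to 2677 in WT. Its erythrocyte markers summed to 13550, against 1050 and 769.8 in the other two and 761 to 2973 in WT, and its neutrophil markers to 4754, against 451 and 1014 in the other two and 410.4 to 1398 in WT. These were highest in that library for 7 of 8, 6 of 7 and 9 of 10 markers, and no marker was at 0 in every library. Thick limb and distal tubule markers summed to 102141, 46312 and 23070 in the libraries labelled knockout and to between 41745 and 81160 in WT, with 6 of 8 highest in labelled-knockout library 1. Proximal tubule markers, which define the main tissue, summed to 287606, 262922 and 290146 in the libraries labelled knockout and to between 251815 and 327474 in WT. That even sum rested on Kap, an androgen-regulated kidney transcript, which had 56848, 102407 and 182660 normalized counts in the libraries labelled knockout, against 184700, 159451 and 185452 in WT. Without Kap, a choice made after the values were seen, the sums were 230759, 160515 and 107486 in the libraries labelled knockout, against 142774, 92364 and 134838 in WT, and 8 of the 12 proximal tubule markers were highest in labelled-knockout library 1. In bulk tissue, fewer cells of a type and less RNA per cell cannot be told apart.

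None of the 10 genes differed between the groups beyond the spread of the libraries, and in all 10 the groups overlapped. By limma with Benjamini-Hochberg adjustment over 21721 genes, 0 of 10 passed an adjusted p of 0.05, against 0.0046% (1 gene) of all genes tested. An unadjusted limma p under 0.05 was reached by 0 of 10, against 10.1% of all genes. Groups that did not overlap were seen in 0 of 10, against 17.7% of all genes. DESeq2 on the recovered reads also called 0 of 10, against 1.8% of the 17223 genes to which it gave an adjusted p. With edgeR the count was also 0 of 10, against 0.00628% of the genes it tested. The fold changes, labelled knockout minus WT on the log2(normalized count + 1) scale, were above 0 for 6 genes and below 0 for 4. Their median was 0.038, against -0.001 over all genes, and it was -0.054 without labelled-knockout library 1.

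**Figure D1:**
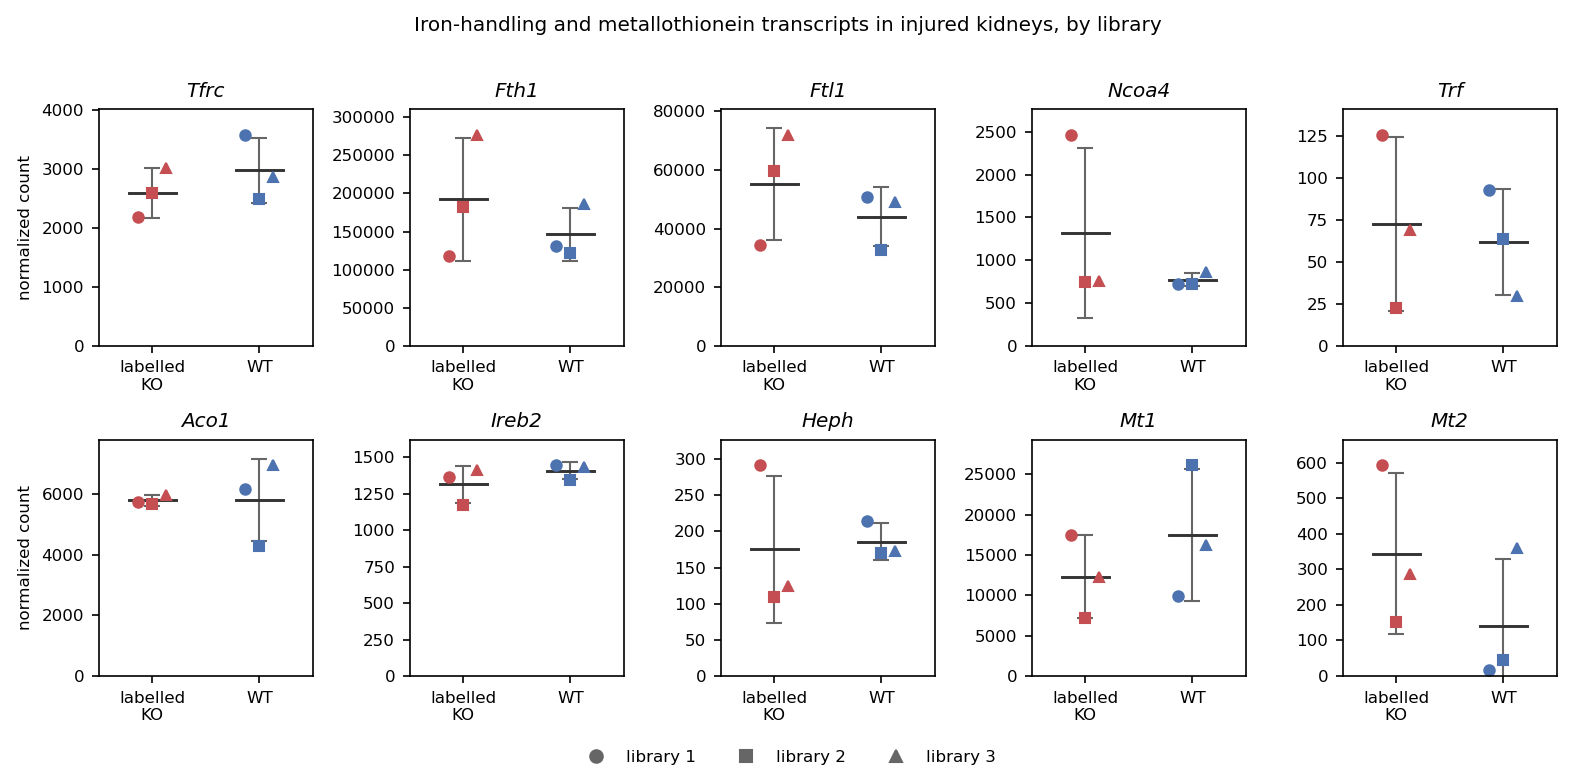
Normalized counts of the 10 genes (vertical axes, linear, from 0) in the libraries labelled knockout (left, red) and WT (right, blue), where symbols give the library number, horizontal bars the mean and whiskers the SD (n = 3 each). Ncoa4 stands at 2466 in labelled-knockout library 1 and at 724 to 857 in the other 5 libraries.

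Per kilobase of gene length the 10 transcripts covered a wide span, led by ferritin. Fth1 had a normalized count per kilobase of 222012 ± 92823 in the libraries labelled knockout and 168825 ± 40329 in WT (SD, n = 3 each), and it was first in all 6 libraries. Ftl1 followed with 41279 ± 14316 per kilobase in the libraries labelled knockout and 32889 ± 7480 in WT, then Mt1 and then Aco1. With the deposited gene lengths these 4 kept the same order in all 6 libraries, and their ranges did not touch. The deposited length of Mt1, 1246 bases, covers its whole locus from 94179082 to 94180327. A shorter, spliced length would raise Mt1 per kilobase, so its place below Ftl1 rests on the lengths used. Over the 6 libraries the level per kilobase ran from 5764 to 20970 for Mt1 and from 956 to 1548 for Aco1. The range of Mt2 (27 to 1010), which moved between the fifth and the last place, took in those of Tfrc (352 to 579) and Ireb2 (124 to 153). Ncoa4 lay between 77.3 and 263 per kilobase, overlapping Ireb2. Heph (14.3 to 38.1) and Trf (6.71 to 37.9) came last and overlapped each other. Both ferritin transcripts together took 1.37 ± 0.556% of the reads in the libraries labelled knockout and 1.11 ± 0.203% in WT (SD, n = 3 each).

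Iron uptake was read from the receptor and its ligand. Tfrc (ENSMUSG00000022797, chr16:32608920-32632794, plus strand) had normalized counts of 2180, 2591 and 3022 in the libraries labelled knockout, against 3582, 2493 and 2865 in WT. The groups overlapped, with the lowest value in labelled-knockout library 1 and the highest in WT library 1. The log2 fold change was -0.19 (SE 0.19, 95% interval -0.64 to 0.25, limma adjusted p = 0.748). It came to -0.054 when WT library 1 was left out and to -0.32 when WT library 2 was left out. Trf (chr9:103204001-103230444, minus strand), whose protein is made mostly by the liver, had the lowest mean of the 10 in both groups. It had 126, 22.3 and 69 normalized counts in the libraries labelled knockout, against 92.8, 63.8 and 29.6 in WT, so each group spanned high and low libraries. Its log2 fold change was 0.05 (SE 0.66, interval -1.47 to 1.57, limma adjusted p = 0.985). The sign of that value changed when single libraries were left out, to -0.50 without labelled-knockout library 1, -0.071 without labelled-knockout library 3 and -0.40 without WT library 3. The highest Trf value was in labelled-knockout library 1, whose markers of several cell types, tubule cells included, are given above. Hepatocyte markers summed to 22262, 8198 and 19924 in the libraries labelled knockout and to between 5002 and 8232 in WT. A single gene made up most of each high sum, Cyp2e1 with 18272 in labelled-knockout library 1 and Fgb with 15111 in labelled-knockout library 3. Alb, the defining marker, was at 74.6, 62.9 and 45.3 in the libraries labelled knockout, against 45.1, 25 and 20.5 in WT. The part of any of these cell types in the Trf values was not tested. In GENCODE M21, 2108 of the 3320 exon bases of Trf are shared with Gm20425 on the same strand, a gene that is not listed in the files.

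Iron storage was read from the ferritin subunits, of which the heavy chain oxidises iron and the light chain helps to lay down the iron core. Fth1 (chr19:9982703-9985092, plus strand) had normalized counts of 117274, 182382 and 277130 in the libraries labelled knockout, against 130594, 121804 and 186209 in WT. Both the lowest and the highest value belonged to the libraries labelled knockout, and the WT values lay between them. The log2 fold change was 0.33 (SE 0.33, interval -0.41 to 1.08, limma adjusted p = 0.743). Leaving out labelled-knockout library 1 or WT library 3 gave 0.65 or 0.52, and leaving out labelled-knockout library 3 gave 0.026. Ftl1 (chr7:45457944-45459884, minus strand) had 34373, 59530 and 72038 normalized counts in the libraries labelled knockout, against 50763, 32547 and 48902 in WT. Labelled-knockout libraries 2 and 3 lay above all WT libraries and labelled-knockout library 1 lay below WT libraries 1 and 3. Its log2 fold change was 0.29 (SE 0.31, interval -0.41 to 0.98, limma adjusted p = 0.764). Leaving out labelled-knockout library 1 gave 0.60, while leaving out labelled-knockout library 3 or WT library 2 gave 0.065 or 0.084.

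Copies of ferritin light chain limit how exactly its reads can be placed. Among GENCODE M21 protein-coding genes and processed pseudogenes outside its own exons, Ftl1 matched Ftl1-ps1 and 7 processed pseudogenes. The match was at least 90% identity over at least 100 bases. Matching miRNA and antisense genes were left out of this count. Of these pseudogenes 6 were listed, with counts that came to 0.282% of the count of Ftl1. Ftl1-ps1, which bears a pseudogene's name but is annotated as protein coding, had normalized counts of 654, 1211 and 1358 in the libraries labelled knockout, against 1067, 706 and 1026 in WT. In each library this was between 1.89% and 2.17% of Ftl1. Its log2 fold change of 0.16 (limma adjusted p = 0.877) was -0.044 without labelled-knockout library 3 and -0.03 without WT library 2. The treatment of reads that match several places is not given in the sources used here.

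Release of stored iron was read from Ncoa4 (chr14:32159865-32179855, plus strand), the receptor that delivers ferritin to autophagosomes. It had normalized counts of 2466, 745 and 752 in the libraries labelled knockout, against 725, 724 and 857 in WT. Labelled-knockout library 1 stood alone, and the other 5 libraries lay close together. The mean was 1321 ± 992 in the libraries labelled knockout and 768 ± 76.5 in WT (SD, n = 3 each), with a log2 fold change of 0.54 (SE 0.45, interval -0.51 to 1.59, limma adjusted p = 0.707). Without labelled-knockout library 1 the value was -0.033, on the other side of 0. That library was also the highest in fat cell (40751), erythrocyte (13550) and neutrophil (4754) markers, and their part in the Ncoa4 value was not tested. Gm6768, a processed pseudogene on chromosome 12 with 99.9% identity to Ncoa4 over 1878 bases, had 555, 133 and 99.8 normalized counts in the libraries labelled knockout, against 130, 168 and 162 in WT. It was named after its values were seen, and it came to between 13.3% and 23.3% of Ncoa4, so that reads of the 2 genes may be split.

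**Figure D2:**
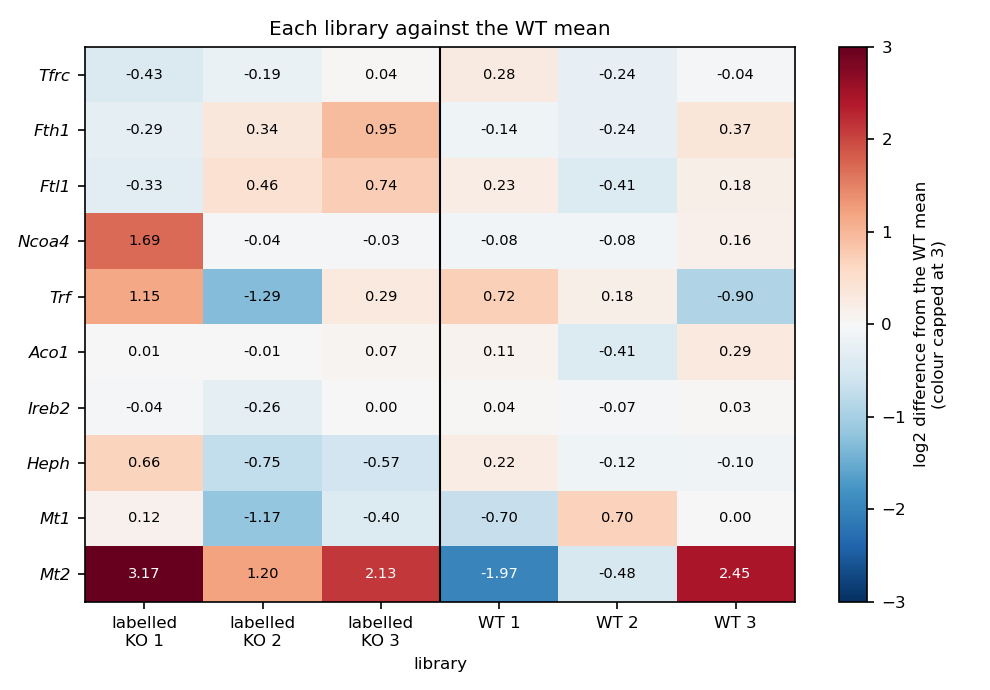
Difference of each library (columns, libraries labelled knockout left of the line) from the WT mean for the 10 genes (rows), in log2(normalized count + 1), with red above and blue below the WT mean. Ncoa4 stands out in labelled-knockout library 1 at 1.69, Mt2 lies far from the WT mean in both groups (3.17 in labelled-knockout library 1, 2.45 in WT library 3), and Ireb2 stays between -0.26 and 0.04.

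The transcripts for the iron regulatory proteins had group means that lay close together. Aco1 (chr4:40143081-40198338, plus strand), which also encodes cytosolic aconitase, had normalized counts of 5724, 5665 and 5984 in the libraries labelled knockout, against 6160, 4297 and 6960 in WT. The mean was 5791 ± 170.1 in the libraries labelled knockout and 5806 ± 1367 in WT (SD, n = 3 each), and the libraries labelled knockout lay within the WT range. The log2 fold change of 0.025 (SE 0.20, interval -0.43 to 0.48, limma adjusted p = 0.975) was -0.0036 with DESeq2, -0.0042 with edgeR and -0.18 without WT library 2. Ireb2 (chr9:54863789-54912530, plus strand) had 1366, 1171 and 1410 normalized counts in the libraries labelled knockout, against 1447, 1342 and 1436 in WT. Labelled-knockout library 2 was the lowest, and the groups overlapped. Its log2 fold change was -0.10 (SE 0.15, interval -0.44 to 0.23, limma adjusted p = 0.835), the narrowest interval of the 10, and -0.021 without labelled-knockout library 2.

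Heph (chrX:96455359-96574485, plus strand) encodes a membrane ferroxidase best known from the gut, where it helps ferroportin to pass iron into the blood. It had normalized counts of 292, 109 and 125 in the libraries labelled knockout, against 215, 170.2 and 173 in WT. Labelled-knockout library 1 was above all WT libraries, and labelled-knockout libraries 2 and 3 were below all of them. The log2 fold change was -0.22 (SE 0.38, interval -1.08 to 0.64, limma adjusted p = 0.863). Leaving out labelled-knockout library 1 gave -0.66, and leaving out labelled-knockout library 2 gave 0.044. Endothelial markers summed to 10585, 9872 and 4815 in the libraries labelled knockout and to between 11654 and 19324 in WT. Collecting duct markers summed to 21243, 12680 and 2986 in the libraries labelled knockout and to between 9377 and 13741 in WT. Aqp2 alone had 13446 in labelled-knockout library 1, and 5 of the 8 collecting duct markers were highest there. Fxyd4 went the other way, with 438, 727 and 628 in the libraries labelled knockout, against 1263, 801 and 804 in WT. The part of these cells in the Heph values was not tested.

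The metallothioneins differed widely between libraries of the same group. Mt1 (chr8:94179082-94180327, plus strand) had normalized counts of 17484, 7182 and 12267 in the libraries labelled knockout, against 9935, 26129 and 16179 in WT. The groups overlapped, with the highest value in WT library 2 and the lowest in labelled-knockout library 2. The log2 fold change was -0.48 (SE 0.42, interval -1.47 to 0.50, limma adjusted p = 0.723). Leaving out labelled-knockout library 2 or WT library 2 brought it to -0.14 or -0.13, and leaving out labelled-knockout library 1 or WT library 1 brought it to -0.78 or -0.83.

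Mt2 (chr8:94172664-94173568, plus strand) had 594, 151 and 287 normalized counts in the libraries labelled knockout, against 15.9, 46.3 and 359 in WT. WT library 3 lay above labelled-knockout libraries 2 and 3, while WT libraries 1 and 2 lay below all the libraries labelled knockout. These values rest on 533, 156 and 279 reads in the libraries labelled knockout and on 19, 50 and 316 reads in WT. The log2 fold change of 2.17 had the widest interval of the 10 (SE 1.10, interval -0.46 to 4.79, limma adjusted p = 0.554). DESeq2 gave 1.29 on the recovered reads and edgeR 1.30. Leaving out WT library 1 brought the limma value to 1.18, and leaving out WT library 3 brought it to 3.39. In GENCODE M21, 432 of the 588 exon bases of Mt2 lie opposite Gm45774, a gene on the minus strand that was named here after its values were seen. Gm45774 had 86.9, 22.3 and 42.2 normalized counts in the libraries labelled knockout, against 18.4, 29.6 and 31.9 in WT. The use of strand in counting is not given in the sources used here, so reads of Mt2 and Gm45774 cannot be told apart. Gm45774 came to 14.6%, 14.7% and 14.7% of Mt2 in the libraries labelled knockout, against 116%, 64% and 8.86% in WT.

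**Figure D3:**
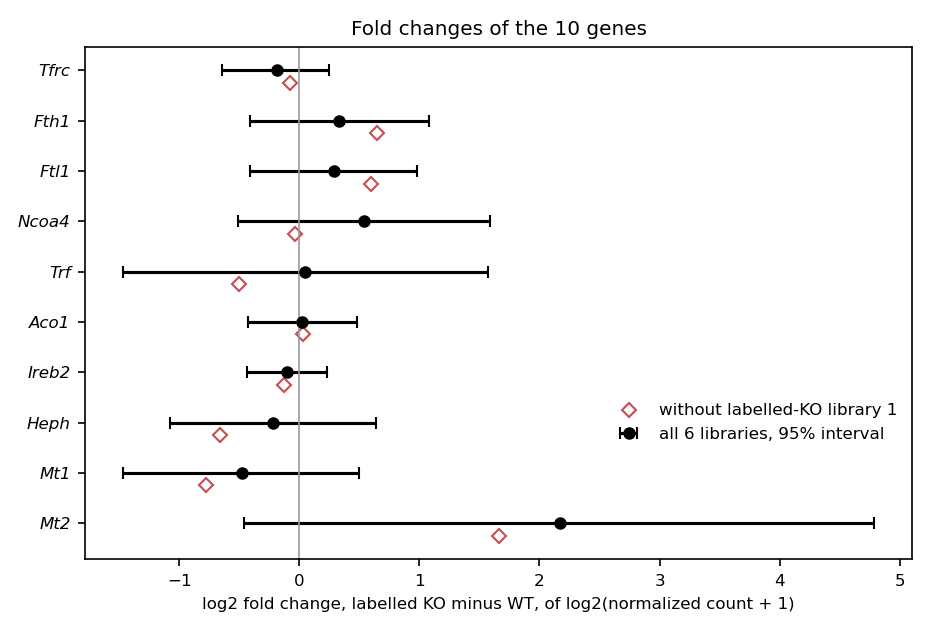
Log2 fold change, labelled knockout minus WT, of log2(normalized count + 1) for the 10 genes (horizontal axis), with filled circles and 95% intervals from limma on all 6 libraries and open diamonds without labelled-knockout library 1. Every interval crosses 0, Ireb2 has the narrowest and Mt2 the widest (-0.46 to 4.79), and the diamond of Ncoa4 lies at -0.033.

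Plain ratios within a library do not depend on its size factor. The log2 ratios were taken after adding 1 to each normalized count, so they depend on it slightly where counts are low. For 3 such log2 ratios the groups were compared by a two-sided exact permutation test, which cannot go below 0.1 with 3 libraries against 3. The ratio of Fth1 to Ftl1 was 3.41, 3.06 and 3.85 in the libraries labelled knockout, against 2.57, 3.74 and 3.81 in WT. The log2 ratio averaged 1.78 ± 0.16 in the libraries labelled knockout and 1.73 ± 0.32 in WT (SD, n = 3 each, difference 0.044, exact p = 0.8). The difference was -0.039 without labelled-knockout library 3 and -0.14 without WT library 1, so its sign rested on single libraries. The log2 ratio of Tfrc to Fth1 was -5.75, -6.14 and -6.52 in the libraries labelled knockout, against -5.19, -5.61 and -6.02 in WT. The groups overlapped and differed by -0.53 (exact p = 0.2), a value that was -0.32 without WT library 1 and -0.34 without labelled-knockout library 3. The ratio of Mt1 to Mt2 was 29.5, 47.6 and 42.7 in the libraries labelled knockout, against 626, 565 and 45 in WT. WT library 3 therefore lay within the range of the libraries labelled knockout, and WT libraries 1 and 2 lay far above it. The log2 difference was -2.65 (exact p = 0.2), or -2.68 and -2.52 with 0.1 and 5 added in place of 1. The overlap with Gm45774 limits this ratio too.

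**Figure D4:**
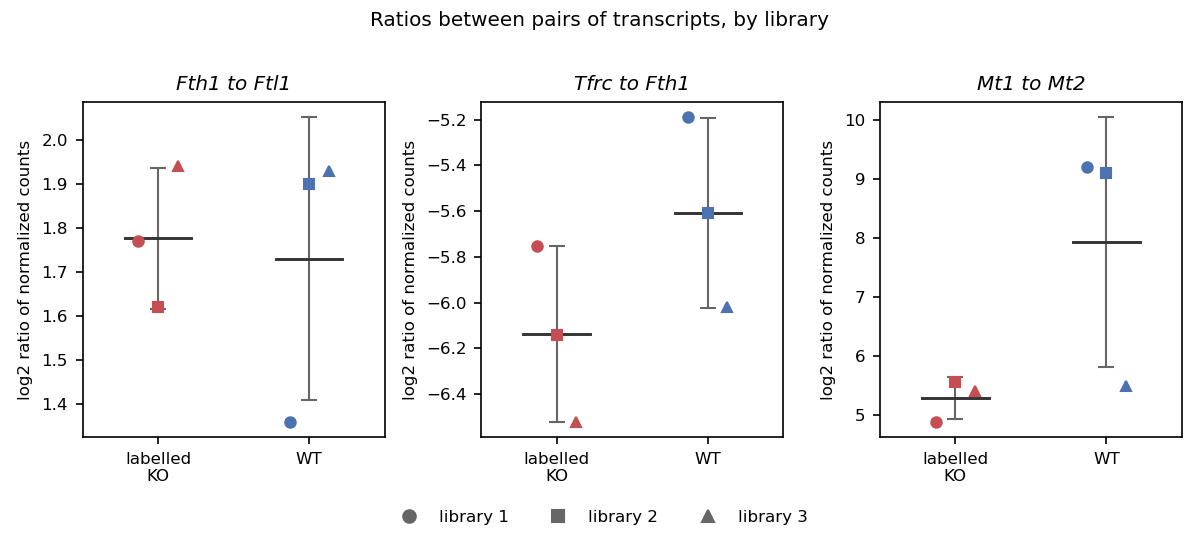
Log2 ratios of normalized counts for Fth1 to Ftl1, Tfrc to Fth1 and Mt1 to Mt2 (vertical axes, which do not start at 0), with libraries labelled knockout left and WT right, symbols for the library number, bars for the mean and whiskers for the SD (n = 3 each). Each normalized count had 1 added before the ratio was taken. For Mt1 to Mt2 the libraries labelled knockout lie between 4.88 and 5.56 and WT library 3 lies among them at 5.49.

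The other genes of iron, haem and metal handling gave no call by limma either. Of 97 genes on 4 lists, 91 were found in the files and all of these passed the filter, 53 with a fold change above 0 and 38 below, and 0 passed an adjusted limma p of 0.05, against 0.0046% of all genes. At an unadjusted p under 0.05 there were 8 higher and 3 lower, against 3.94% and 6.14% of all genes. DESeq2 gave an adjusted p to 86 of them and called 1 higher and 2 lower, against 0.598% and 1.2% of all genes with an adjusted p. Alas2, Hp and Hpx, which are given below, were among those without a DESeq2 p-value. The 21 genes for iron transport and its regulators had a median fold change of 0.34, against -0.001 over all genes, with 15 above 0 and 6 below. Of these, 4 had an unadjusted p under 0.05, all higher. In 5 of them the libraries labelled knockout lay above WT and in 0 below, against 8.27% and 9.43% of all genes. This list includes Lrp2 and Cubn, endocytic receptors that are also proximal tubule markers, and Cubn is 1 of the 4. Cubn had normalized counts of 5914, 3872 and 3396 in the libraries labelled knockout, against 3524, 1436 and 2557 in WT. Proximal tubule sums without Kap, which include Cubn and Lrp2 themselves, were 230759, 160515 and 107486 in the libraries labelled knockout and 92364 to 142774 in WT. With Kap the sums were 287606, 262922 and 290146 in the libraries labelled knockout and 251815 to 327474 in WT. The part of the tubule markers in the list's median was not tested. The 19 genes for mitochondrial iron and iron-sulfur clusters had a median of 0.15, the 23 haem genes of -0.042, and the 28 zinc and copper genes of 0.0065. Without labelled-knockout library 1 these medians were 0.065, 0.058 and 0.019, so that of the haem genes changed sign, and that of the iron transport genes was 0.35. The 8 mRNAs long known to carry an IRE, 3 of them among the 10 genes, had a median of 0.34, with 6 above 0, 2 below and 0 at an unadjusted p under 0.05.

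**Figure D5:**
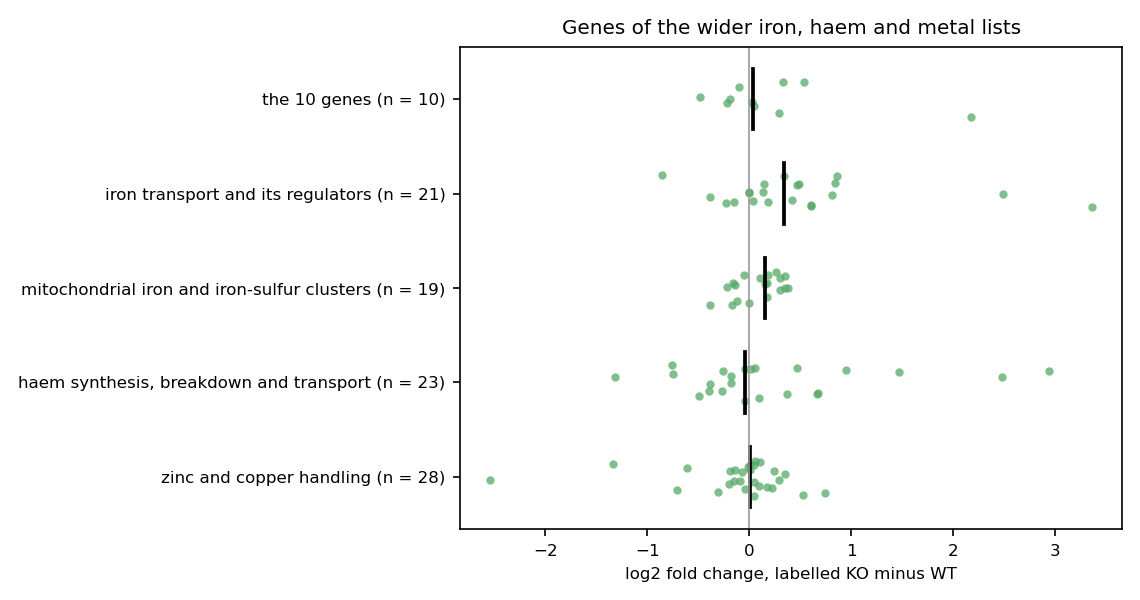
Log2 fold change, labelled knockout minus WT (horizontal axis), of each gene (points, spread vertically for legibility) in the 10 genes and the 4 wider lists, with the median of each list as a bar. The median of the iron transport list lies at 0.34 and those of the haem list and of the zinc and copper list lie near 0.

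Iron transporters of the cell membrane were followed with the 10 genes. Slc11a2, the divalent metal transporter that moves iron out of endosomes, had normalized counts of 2503, 2191 and 2461 in the libraries labelled knockout, against 2110, 1224 and 1891 in WT. The groups did not overlap, but the log2 fold change of 0.49 did not pass the test (SE 0.22, limma adjusted p = 0.493), and it was 0.25 without WT library 2. Slc40a1, the iron exporter ferroportin, had 1243, 1693 and 2365 normalized counts in the libraries labelled knockout, against 1495, 1094 and 1283 in WT (log2 fold change 0.42, limma adjusted p = 0.587). That value was 0.64 without labelled-knockout library 1 and 0.18 without labelled-knockout library 3. Slc39a14, which takes up iron that is not bound to transferrin, had 3735, 984 and 1926 in the libraries labelled knockout, against 816, 1113 and 1361 in WT. Its log2 fold change was 0.84 (limma adjusted p = 0.576), with 0.36 when labelled-knockout library 1 was left out and 1.32 when labelled-knockout library 2 was. Cp, the plasma ferroxidase ceruloplasmin, had 3224, 1120 and 4112 in the libraries labelled knockout, against 1193, 1575 and 1476 in WT (log2 fold change 0.81, limma adjusted p = 0.583). Without labelled-knockout library 2 or 3 the value was 1.37 or 0.44. Tfr2, a second transferrin receptor that senses iron in the liver, was named after DESeq2 called it higher (log2 fold change 3.35, adjusted p = 0.0208). It had 70.2, 42.6 and 14.4 normalized counts in the libraries labelled knockout, against 8.36, 3.7 and 0 in WT, and its limma adjusted p was 0.383.

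Several haem genes were high in a single library. Hmox1, the inducible haem oxygenase that frees iron from haem, had normalized counts of 6085, 3627 and 7071 in the libraries labelled knockout, against 5981, 7025 and 8414 in WT (log2 fold change -0.39, limma adjusted p = 0.626). Without labelled-knockout library 2 or 3 the value was -0.11 or -0.59. Alas1, the rate-limiting enzyme of haem synthesis outside red cells, had 3372, 5803 and 7397 in the libraries labelled knockout, against 6817, 4021 and 7650 in WT. Its log2 fold change of -0.18 was 0.14 without labelled-knockout library 1 and 0.0041 without WT library 3. Fech, which inserts iron into haem, had a log2 fold change of 0.056 (limma adjusted p = 0.939), and of -0.12 without labelled-knockout library 3. Alas2, the red cell form of the synthesis enzyme, had 518, 34.9 and 18.5 in the libraries labelled knockout, against 43.5, 11.1 and 30.7 in WT. Hp, which binds free haemoglobin and is made by liver and fat, had 42070, 1630 and 223 in the libraries labelled knockout, against 1474, 145 and 156 in WT. Hpx, which binds free haem, had 503, 5.81 and 11.3 in the libraries labelled knockout, against 5.85, 1.85 and 11.4 in WT. For these last 3 genes labelled-knockout library 1 was far above the others, as it was for the summed erythrocyte markers (13032 without Alas2, which is itself on that list) and fat cell markers (40751), whose part was not tested. Their log2 fold changes were 1.47, 2.94 and 2.48 with that library, and 0.039, 0.90 and 0.56 without it. Blvrb, a biliverdin reductase, was named after DESeq2 called it lower (log2 fold change -1.30, adjusted p = 0.00716). It had 321, 593 and 567 normalized counts in the libraries labelled knockout, against 1034, 1547 and 1060 in WT, without overlap, and its limma adjusted p was 0.368.

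Zinc genes were followed because zinc acts on the metallothioneins through Mtf1. Mtf1 had normalized counts of 505, 387 and 454 in the libraries labelled knockout, against 359, 390.4 and 304 in WT (log2 fold change 0.35, limma adjusted p = 0.569). Slc30a1, a zinc exporter that Mtf1 is known to induce, had 1360, 1632 and 1730 in the libraries labelled knockout, against 1261, 965 and 1039 in WT. Its groups did not overlap, and its log2 fold change was 0.53 (SE 0.17, interval 0.14 to 0.92, limma adjusted p = 0.401). Mt3, a metallothionein best known from brain, was named after DESeq2 called it lower (log2 fold change -3.46, adjusted p = 0.0157). It had 3.34, 7.75 and 6.17 normalized counts in the libraries labelled knockout, against 22.6, 155 and 13.7 in WT, and its limma adjusted p was 0.423. The limma log2 fold change was -2.54, and -1.52 without WT library 2. Mt3 lies beside Mt1 and Mt2 on chromosome 8, and the order of libraries in the 3 genes was not the same. The overlap of Mt2 with Gm45774 limits its order.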

How the data were processed

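RNA of injured mouse kidney was measured in 6 libraries, as 1 value per gene. The deposited values are a signal. Their form shows counts of reads scaled by a single size factor in each library, and the deposited gene length (another unit, in bases) was used for levels per kilobase. The build was mm10 per the submitters' processing notes. The aligner is not given in the sources used here, nor are the counter, the use of strand and the annotation release. In every library 100% of values were whole reads within 0.001 reads after division by 1 step, which gave 15518083 to 20356601 reads, and intervals cover the spread between libraries only.

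Groups come from the titles and the genotype labels, which name WT, and numbers from the titles. The test was limma 3.58.1 (trend and robust) on log2(normalized count + 1), which understates the change of low genes, for genes with a mean of at least 1 and a Benjamini-Hochberg threshold of 0.05, in R 4.3.3. It was tested on simulated data. edgeR 4.0.16 (quasi-likelihood, 15915 genes, 1 call) and DESeq2 1.42.0 (Wald, 17223 genes with an adjusted p, 310 calls) ran on the recovered reads. Other scaling, pseudocounts, filters, a replicate block and leaving out each library were tried. Copies were found with blastn 2.17.0+.

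The 10 genes and all lists were chosen with earlier results of these data known. Named besides the 10 were key genes of the wider lists whatever their values, list genes past the limma threshold (0), the copies that bear a member's symbol, and the 3 nearest profiles of Mt1, Tfrc and Trf. Genes named after their values were seen are marked. Hamp, Hamp2, Mt4, Ftmt, Fdx2 and Slc30a10 were on the lists and are not analysed here.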

Additional observations from a re-analysis of the deposited data

How the results depend on the processing

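Under each of 8 other settings and without each library in turn, 0 of the 10 genes passed the limma, edgeR or DESeq2 threshold, although limma calls only 1 of 21721 genes here. That count over all genes was 310 with DESeq2, 4 with TMM scaling, 5 with a pseudocount of 5, 5 without a filter and 1 to 6 when single libraries were left out (6 without labelled-knockout library 1, 3 without labelled-knockout library 3). The wider lists had 3 calls with DESeq2, against 0 with limma. Deviations of same-numbered libraries from their group means had correlations over genes of 0.067, -0.148 and 0.122. Those of other pairs ran from -0.231 to 0.204. Deviations sum to 0 within each group, so these values cannot decide whether the numbers pair the libraries. A replicate block gave 16 calls over all genes and 0 among the 10, and not every library correlated best with its own number.

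Signs turned when single libraries were left out for Ncoa4 (-0.033 to 0.83), Trf (-0.50 to 0.72, with -0.071 and -0.40 between), Aco1 (-0.18 to 0.17), Heph (-0.66 to 0.044), Alas1 (-0.46 to 0.14, with 0.0041 between), Fech (-0.12 to 0.17), Ftl1-ps1 (-0.044 to 0.48, with -0.03 between) and the log2 ratio of Fth1 to Ftl1 (-0.14 to 0.14, with -0.039 between). Aco1 was also -0.0036 with DESeq2 and -0.0042 with edgeR. The cause was not tested. The depth of Mt2 in WT library 1, 19 reads, limits its fold change.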

Other observations

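The transcripts most like 3 of the genes across the 6 libraries were ranked among 12131 genes by the root mean square difference of their centred log2 values, as a description of these libraries with no test. The nearest to Tfrc were Abcg2 (0.0543), Cyb5a (0.0579) and Zfp65 (0.0713), where Tfrc itself varied by 0.226 around its mean. Abcg2, an efflux transporter that can carry porphyrins, had normalized counts of 5553, 6451 and 7944 in the libraries labelled knockout, against 8470, 6513 and 7510 in WT.

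The nearest to Mt1 were Cd300a (0.119), Amigo2 (0.138) and Clec4a2 (0.177), where Mt1 varied by 0.6. Cd300a, a receptor of myeloid cells, had 80.2, 34.9 and 67.9 normalized counts in the libraries labelled knockout, against 47.6, 129.5 and 68.3 in WT. Macrophage and monocyte markers summed to 8456, 3781 and 4897 in the libraries labelled knockout and to 5076, 8985 and 5969 in WT. The 10 markers did not share 1 pattern. Lyz2 had 3905, 1254 and 2188 in the libraries labelled knockout, against 1388, 3834 and 2643 in WT. C1qa had 674, 471 and 375 in the libraries labelled knockout, against 799, 1068 and 617 in WT. Unlike Mt1, C1qa was higher in WT library 1 than in labelled-knockout library 1. The part of these cells in the Mt1 values was not tested. The nearest to Trf, Stambpl1 (0.361), Casp4 (0.392) and Pon3 (0.425), were less close, where Trf varied by 0.861.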
